A study of Mus musculus with 12 samples.

Results

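The 40 genes described here encode the core machinery of the cell cycle and of mitosis, and were taken by name from the expression table, the m6A peak list and the YTHDF2 peak list of a study of mouse macrophages. All 40 were found among the 27013 genes of the expression table. They fall into 7 roles: the proliferation mark Mki67 with the chromosome scaffold enzyme Top2a, cyclins, cyclin-dependent kinases (CDKs), CDK inhibitors, DNA replication and nucleotide supply, mitotic kinases and checkpoint proteins, and kinetochore, kinesin and spindle proteins. The study asked what the loss of YTHDF2 does to inflammatory macrophages. YTHDF2 is a protein that binds mRNA marked with N6-methyladenosine (m6A) and promotes its decay. Bone marrow of C57BL/6 mice, either WT or with a conditional knockout of Ythdf2 (Ythdf2 cKO), was cultured with M-CSF at 20 ng/ml over 7 days and then with LPS at 100 ng/ml and IFN-γ at 20 ng/ml over 24 h. All groups received both stimuli, so no unstimulated macrophages enter any value below. The labels used here name no Cre driver and no age, and do not say whether the 2 libraries of a group came from separate mice or cultures, so a p-value measures only the spread between these libraries, which may be technical. Input RNA was compared between m6A_Input_WT and m6A_Input_cKO (2 libraries each), m6A peaks came from m6A_IP_WT with m6A_Input_WT, and YTHDF2 peaks from YTHDF2_IP_WT with YTHDF2_Input_WT.

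Cyclins bind CDKs and switch them on in a fixed order: D-type cyclins act with Cdk4 and Cdk6 as a cell leaves rest, E-type cyclins with Cdk2 at the start of DNA replication, and A- and B-type cyclins with Cdk2 and Cdk1 on the way into mitosis. CDK inhibitors hold these enzymes back. Macrophages grown from bone marrow divide in response to M-CSF, and LPS and IFN-γ are known to stop that division. Transcription of the replication genes depends largely on E2F factors. That of the mitotic genes depends largely on MuvB complexes, which bind a short element called CHR (cell cycle genes homology region), often near CCAAT boxes.

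The files hold no values per library, and the depth of each library is not known. The expression values are those of the authors' deposited table, which gives for each gene a mean normalized count over the libraries, a log2 fold change between genotypes with its standard error (SE), and a p from a Wald test, adjusted for 10778 genes here called tested. Which genotype was divided by which is not stated there. Ythdf2 itself was at 1.10 ± 0.16 (SE) in the authors' deposited table, Wald adjusted p 2.1e-09, at a mean count of 1762. A positive value is therefore described as lying on the side of Ythdf2 and a negative one on the opposite side, with no statement of which genotype was higher. Macrophage markers identified the cells as labelled: 10 of 10 had a mean count over 100 in the authors' deposited table, with a summed count of 473650, as had 8 of 8 markers of M1 activation. Markers of B cells, dendritic cells and haematopoietic progenitors reached that count in 0 of 6 genes each. Of T and NK cell markers 1 of 8 did (Cd4), and of erythroid markers 1 of 7 (Tfrc). Of fibroblast markers, 4 of 7 did, with a summed count of 1518, and of neutrophil markers 4 of 10, with a summed count of 10201, of which Csf3r made up 8496.

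Promoters of the mitotic and of the replication members differ in the CHR and E2F letter strings they hold, and 5 of them are printed here to show these strings. RefSeq promoters (GRCm38.p6, 250 bases before to 50 bases after the transcription start) were at hand for 32 of the 40 members. Each was searched on both strands for the CHR letters TTTGAA, for CCAAT, and for 4 E2F letter strings (TTTCCCGC, TTTGGCGC, TTTCGCGC and TTTGCCGC). The stretches below are 100 bases of upstream sequence, written 5′ to 3′ on the strand of the gene, with matches to any of these strings or their reverse complements in capitals. Where adjoining capitals form a longer run, as in Mcm5 and Mcm6, matches on both strands overlap.
Mki67, chr7:135716468-135716567, minus strand: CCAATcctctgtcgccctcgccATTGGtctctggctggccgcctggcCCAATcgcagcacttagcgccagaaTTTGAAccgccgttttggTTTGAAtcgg
Top2a, chr11:99024190-99024289, minus strand: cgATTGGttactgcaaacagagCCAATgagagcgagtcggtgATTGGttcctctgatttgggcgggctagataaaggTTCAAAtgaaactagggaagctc
Cdk1, chr10:69352913-69353012, minus strand: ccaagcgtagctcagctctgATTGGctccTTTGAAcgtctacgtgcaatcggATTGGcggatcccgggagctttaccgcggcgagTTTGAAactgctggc
Mcm5, chr8:75109356-75109455, plus strand: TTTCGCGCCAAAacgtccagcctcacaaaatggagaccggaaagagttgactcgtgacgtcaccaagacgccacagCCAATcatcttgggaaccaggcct
Mcm6, chr1:128359720-128359819, minus strand: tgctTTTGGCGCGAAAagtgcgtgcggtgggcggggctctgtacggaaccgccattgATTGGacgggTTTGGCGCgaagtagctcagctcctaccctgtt

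In the stretches shown, Mki67, Top2a and Cdk1 held TTTGAA on one strand or the other beside several CCAAT boxes. Mcm5 and Mcm6 held E2F letters and also CCAAT. An E2F match of Cdk1 lies upstream of its printed stretch. Over the members, TTTGAA was present in 12 of 32 promoters (37.5%), against 20.2% of 27025 promoters of all genes. By role it was in both promoters of Mki67 and Top2a, in 3 of 5 of mitotic kinases and checkpoint genes (Aurka, Bub1b, Plk1), in 4 of 6 of kinetochore and spindle genes (Cenpf, Kif11, Kif23, Prc1), and in 1 of 9 of replication genes (Mcm2). E2F letters were present in 6 of 32 (18.8%, against 2.60% of all genes), of which 4 were the replication genes Mcm3, Mcm5, Mcm6 and Mcm7 and the others Cdk1 and Cdk2. In the 13 promoters of Mki67, Top2a and the mitotic groups E2F letters were found in 0. CCAAT was present in 25 of 32 (78.1%), against 41.1% of all genes. It was in 8 of 9 promoters of replication genes and in 11 of the 13 of Mki67, Top2a and the mitotic groups. These are letter matches, not measured binding sites.

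Over the whole set, 23 of the 40 members were tested. Of these, 3 passed the threshold set here, an adjusted p under 0.05 in the authors' Wald test. They were Tpx2 and Mki67 on the side of Ythdf2 and Cdkn1a on the opposite side. Over all tested genes 250 passed, a background of 2.32% (1.76% positive and 0.557% negative). Most of the machinery gave no call. The tested members had a median log2 fold change of 0.10 in the authors' deposited table, against −0.01 for all tested genes, and 14 of 23 (60.9%) were above 0 against 48.7% of all. The other 17 members had no adjusted p, because their mean counts, from 0.391 to 45.5, lay below the lowest tested count of 48.0. The mitotic genes are most of these: 5 of 6 mitotic kinases and checkpoint genes and 6 of 8 kinetochore and spindle genes were not tested. In bulk RNA, fewer dividing cells and less RNA per cell cannot be told apart. The plot of the tested members by role shows how narrow the called intervals are beside those of the low-count genes.

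**Figure D1:**
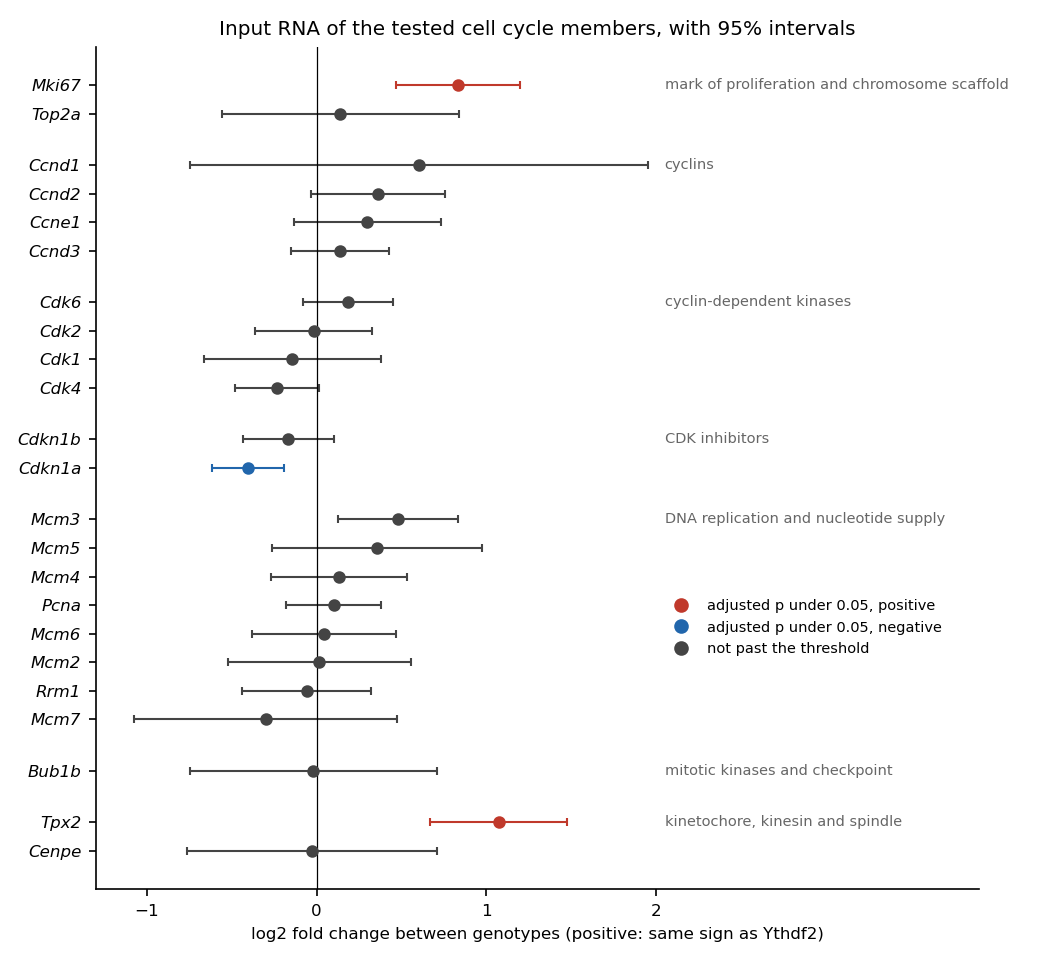
Log2 fold change between genotypes of the 23 tested members in the authors' deposited table (points) with 95% intervals (bars), grouped by role; positive values have the sign of Ythdf2. Mki67 (0.83) and Tpx2 (1.07) lie clear of 0 on the positive side, Cdkn1a (−0.41) on the negative side, and Ccnd1 has the widest interval.

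Mki67, whose protein coats mitotic chromosomes and is the standard mark of cycling cells, was at 0.83 ± 0.19 (SE; 95% interval 0.47 to 1.20) in the authors' deposited table, with a mean count of 796 and an adjusted p of 0.0013 (Wald). Top2a, the topoisomerase that untangles sister chromatids and is usually expressed with Mki67, was at 0.14 ± 0.36 with a mean count of 106 (interval −0.56 to 0.84, adjusted p 0.99, authors' deposited table). The interval of Top2a takes in both 0 and the value of Mki67, so these data do not show whether the 2 genes differed. Tpx2, which activates the kinase Aurka on the spindle and nucleates microtubules there, was at 1.07 ± 0.21 (interval 0.67 to 1.48) with a mean count of 746 in the authors' deposited table (Wald adjusted p 7.5e-05). Its partner Aurka had a mean count of 30.3, was not tested, and was at −0.08 ± 0.59 in the authors' deposited table.

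The remaining spindle, kinetochore and kinesin genes were sparse. Cenpe, a kinesin that links kinetochores to microtubules, was the other tested member of this role, at −0.03 ± 0.38 with a mean count of 77.2 in the authors' deposited table (Wald adjusted p 1.00). Nusap1 (mean count 18.0) was at 1.00 ± 0.78, Prc1 (45.5) at 0.38 ± 0.49, Kif23 (36.4) at 0.39 ± 0.58 and Cenpf (3.20) at 0.53 ± 1.82 in the authors' deposited table, each untested. Kif20a (12.4) was at −0.43 ± 0.95. Kif11, the motor that pushes spindle poles apart, had a mean count of 0.391 in the authors' deposited table, which is 2 times the lowest value of that column (0.196), as 2 reads in 1 library would give. Among the mitotic kinases and checkpoint genes, Bub1b, a spindle checkpoint kinase, was tested and lay at −0.02 ± 0.37 (mean count 80.1, adjusted p 1.00). Aurkb (44.1), Plk1 (8.23), Bub1 (28.8) and Birc5 (14.4) had values from −0.89 to −0.08 in the authors' deposited table with SE of 0.49 to 1.13. Mean counts are not corrected for transcript length, so they give no order of levels between genes.

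Cdkn1a, which encodes p21, an inhibitor of CDKs that p53 induces, was at −0.41 ± 0.11 (interval −0.62 to −0.19) with a mean count of 10759 in the authors' deposited table (Wald adjusted p 0.013). Cdkn1b, which encodes the related inhibitor p27, was at −0.17 ± 0.14 (mean count 1355, adjusted p 0.84). Its interval, −0.43 to 0.10, takes in the value of Cdkn1a. The called inhibitor therefore had the sign opposite to that of Mki67 and Tpx2. The difference between these genes was not tested, since the libraries' own values are needed for it. With a requirement of at least 1.5-fold, Cdkn1a lost its call and Mki67 and Tpx2 remained.

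None of the 4 CDKs was called, at a background of 2.32%. Cdk6, a partner of D-type cyclins, was highest in the authors' deposited table, at 0.18 ± 0.14 (mean count 1953, Wald adjusted p 0.80), and Cdk4, which shares those partners, lowest, at −0.23 ± 0.13 (mean count 1773, adjusted p 0.57). Cdk1, the kinase of mitotic entry, was at −0.14 ± 0.27 (168), and Cdk2, the kinase of S phase, at −0.02 ± 0.18 (618). Their 4 intervals all included 0.

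The 4 tested cyclins were all above 0 and none was called, at a background of 2.32%. Ccnd1 was highest in the authors' deposited table at 0.60 ± 0.69 (mean count 701, Wald adjusted p 0.94) and Ccnd3 lowest at 0.14 ± 0.15 (2026, adjusted p 0.92). Ccnd2 was at 0.36 ± 0.20 (350) and Ccne1 at 0.30 ± 0.22 (296). Ccne2, Ccna2, Ccnb1 and Ccnb2 had mean counts of 5.02 to 34.0 and were not tested. The SE of Ccnd1 was far above that of genes with a like count. It was 4.20 times the median SE of the 100 tested genes nearest in mean count (0.164), and of 6463 tested genes with a mean count of at least 500, 19 (0.294%) had an SE as high. The interval of Ccnd1 ran from −0.75 to 1.95, which takes in 0 as well as the values of Mki67 and Tpx2. The SEs of Mki67 and Tpx2 were above those of 99% and 96% of their nearest 100 genes as well, at 1.20 and 1.27 times the median. That was not particular to the calls: the SE of the uncalled Pcna was above 96% (1.21 times), that of the called Cdkn1a above 23% (0.94 times). The plot of SE against mean count shows these values.

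**Figure D2:**
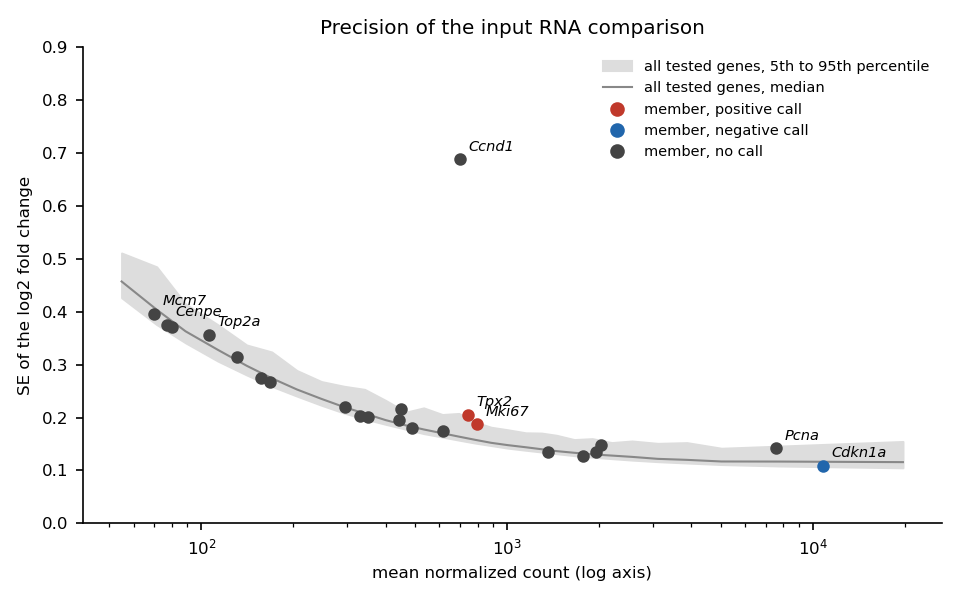
SE of the log2 fold change (y) against mean normalized count (x, log axis) for the 23 tested members (points) over the median and the 5th to 95th percentiles of all tested genes (line and band), from the authors' deposited table. Ccnd1 at an SE of 0.69 stands far above the band at its count.

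Of 10 genes of DNA replication and nucleotide supply, 8 were tested and 0 called, against 2.32% of all tested genes. An unadjusted p under 0.05 in the authors' Wald test was found for 1 of the 8, as for 1077 of all 10778 tested genes. That was Mcm3, a subunit of the MCM helicase that unwinds DNA at the fork, which the authors' deposited table puts at 0.48 ± 0.18 (mean count 487, adjusted p 0.18). Its fellow subunits ranged from Mcm5 at 0.36 ± 0.31 through Mcm4 at 0.13 ± 0.20, Mcm6 at 0.04 ± 0.22 and Mcm2 at 0.02 ± 0.27 to Mcm7 at −0.30 ± 0.40, the lowest of the role (mean count 70.2, adjusted p 0.96). The intervals of Mcm2, Mcm4, Mcm5, Mcm6 and Mcm7 all included 0. Pcna, the sliding clamp of DNA polymerases, was at 0.10 ± 0.14 with a mean count of 7575, and Rrm1, the large subunit of ribonucleotide reductase, at −0.06 ± 0.19 (444), in the authors' deposited table. Rrm2 (21.6), the small subunit, and Tyms (36.2), which makes thymidylate, were not tested.

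Tested genes beside the called members on the chromosome gave no call, at a background of 2.32%, and untested genes there were left out. Within 100000 bp, Ptpre was at 0.07 ± 0.12 and 5830432E09Rik at −0.05 ± 0.23 beside Mki67, and Bcl2l1 at 0.26 ± 0.15 beside Tpx2, in the authors' deposited table. Beside Cdkn1a, Stk38 was at 0.00 ± 0.12, Srsf3 at −0.26 ± 0.16 and Trp53cor1 at −0.14 ± 0.43.

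Some cell type markers were called as well. Of the 10 macrophage markers 3 were called in the authors' deposited table: Lyz2 at −1.49 ± 0.33 (Wald adjusted p 0.0013) and Itgam at −0.55 ± 0.11 (adjusted p 0.00014), on the side of Cdkn1a, and Cd68 at 0.40 ± 0.11 (adjusted p 0.022), on the side of Ythdf2. Of the 8 markers of M1 activation, all above 0, 2 were called, Cxcl9 at 0.62 ± 0.15 and Cxcl10 at 0.55 ± 0.13 (Wald adjusted p 0.0030 and 0.0028). The 8 ranged from Il1b at 0.03 ± 1.17 to Il6 at 1.07 ± 0.47, neither of them called. Over all tested genes 48.7% were above 0 and 2.32% were called. In the fibroblast list, Col1a1 was called on the same side as Mki67 and Tpx2, at 0.56 ± 0.17 in the authors' deposited table (mean count 559, Wald adjusted p 0.049). Col1a2 was at 0.46 ± 0.17 (adjusted p 0.16) and Col3a1 at −0.20 ± 0.27, and Lum and Pdgfra had mean counts of 3.08 and 7.79. In the neutrophil list, Mmp8 was called on the side of Cdkn1a, at −0.83 ± 0.19 in the authors' deposited table (Wald adjusted p 0.0013). The other 3 tested neutrophil markers were not: S100a8 was at −0.39 ± 0.26, S100a9 at −0.18 ± 0.27 and Csf3r at 0.06 ± 0.13, and Ly6g, Mpo and Elane had mean counts of 0.772, 1.08 and 0.479. The part of these markers' cells in the members' values was not tested.

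Outside the 40 members, a wider list of 132 cell cycle genes had 129 in the table and 90 tested. Of these, 4 were called, all on the side of Ythdf2, against 2.32% of all tested genes (4.44% here). Cdkn1c, which encodes the CDK inhibitor p57, was at 1.5 ± 0.38 in the authors' deposited table (mean count 120, Wald adjusted p 0.0071), the sign opposite to that of Cdkn1a. The stress-induced growth arrest genes Gadd45b and Gadd45g were at 0.71 ± 0.17 and 0.61 ± 0.19 in the authors' deposited table (Wald adjusted p 0.0036 and 0.042). The lowest Wald statistics belonged to Btg2, an antiproliferative p53 target, at −0.49 ± 0.19 (adjusted p 0.17), to the tubulin gene Tuba1b at −0.24 ± 0.13 (adjusted p 0.52) and to the E2F partner Tfdp1 at −0.35 ± 0.18 (adjusted p 0.52). In 5 of the 6 lists that make up this set, the calls were 2 of 11 tested checkpoint and p53 genes, 1 of 14 other CDK regulators, 0 of 17 of E2F and MuvB transcription, 0 of 16 of spindle, kinetochore and anaphase-promoting complex, and 0 of 12 of cohesin, condensin and cytokinesis. The median of the 90 genes was 0.03, with 47 above 0 and 43 below. When low-count genes were kept in the adjustment, Gadd45g did not pass (adjusted p 0.10), nor when the 25% most abundant genes set the zero (0.074).

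In the WT m6A list, peaks were named for 5 of 23 tested members (21.7%): Cdk4, Cdk6, Cdkn1a, Mcm3 and Tpx2. The background among all tested genes was 45.4%. Peak detection rose with mean count, from 8.01% of tested genes under a mean count of 100 to 69.1% at 3000 and over. At the share of its own count band, the 23 members would hold 9.31 genes with an m6A peak. With YTHDF2 the picture differed. Peaks were listed for 15 of 23 (65.2%), at a background of 64.5% and with 13.6 at the share of the count bands. Both kinds of peak were listed for 4 of 23 (17.4%, against 35.8% of all tested genes). The m6A list gave no peak to any D- or E-type cyclin, while the YTHDF2 list gave each of Ccnd1, Ccnd2, Ccnd3 and Ccne1 at least 2. These counts carry no test, and a gene with no listed peak is not shown to lack the mark.

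**Figure D3:**
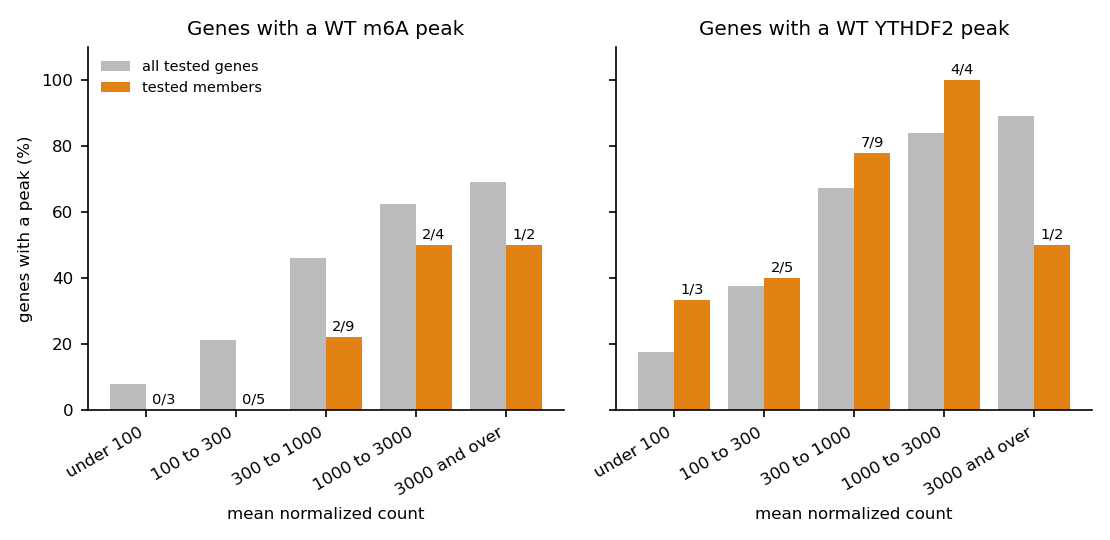
Share of tested genes with a listed WT m6A peak (left) and YTHDF2 peak (right), in percent, by band of mean normalized count, for all tested genes (grey) and for the tested members (orange, with counts). In the band from 300 to 1000, 2 of 9 members had an m6A peak and 7 of 9 a YTHDF2 peak.

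Across all 40 members the m6A list held 8 peaks in 6 genes. Tpx2 had 1, at chr2:152876620-152880205, and no YTHDF2 peak. Mki67 had a YTHDF2 peak and no m6A peak. Cdkn1a alone among the called members had both, with 2 m6A and 4 YTHDF2 peaks. The peak of Mcm3 spanned chr1:20805786-20806761, 2037 bp from its YTHDF2 peak, and that of Cdk6 chr5:3520645-3520744, 172 bp from the nearest of 3.

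An m6A peak overlapped a YTHDF2 peak listed under the same gene by at least 1 bp in 2 genes, Cdk4 and Cdkn1a, of which Cdk4 shares the place with another gene. Cdk4 had the m6A peak chr10:127067272-127067571, which shared 63 bp with the YTHDF2 peak chr10:127067509-127068220 (fold enrichment 2.32). The 63 bp lie in the 3′ UTR of the Cdk4 transcript that the YTHDF2 list names, but past the end of Cdk4 in RefSeq (127067288), which 283 of the 300 bases of the m6A peak also pass. RefSeq has Tspan31 there (127067287 to 127070972), for which the m6A list named a peak shifted by 8 bp and the YTHDF2 list the identical peak; Tspan31 had a mean count of 1630 and was at 0.14 ± 0.13 in the authors' deposited table. Cdkn1a had the m6A peak chr17:29091851-29093885, which shared 122 bp with the YTHDF2 peak chr17:29093764-29095188 (fold enrichment 2.96), whose summit lay in an intron of the listed transcript. Its other m6A peak, chr17:29099525-29099624, began 132 bp past the stop codon. It lay 85 bp from the YTHDF2 peak chr17:29099217-29099439 (fold enrichment 2.85), whose summit was 46 bp before the stop codon. At Cdkn1a these m6A and YTHDF2 peaks thus lay side by side around the stop codon without sharing a base. Their gap of 85 bp is shorter than the m6A fragments (100 nt), so it does not show that mark and binding are apart.

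The 2 m6A peaks of Ccna2, the cyclin of S and G2 phase, cannot be assigned to it alone. They lie at chr3:36565165-36565339 and chr3:36565390-36565539, where Ccna2 overlaps Exosc9, a subunit of the RNA exosome, on the other strand. Exosc9 was given m6A peaks that end within 4 bp of both, at chr3:36563098-36565343 and chr3:36565394-36565543, and a YTHDF2 peak over both, at chr3:36565064-36565587 (fold enrichment 4.79). The mean count of Ccna2 was 6.67 and that of Exosc9 489 in the authors' deposited table. Counting a YTHDF2 peak of any gene, 4 of the 8 members' m6A peaks overlapped one, against 49.0% of 9314 placed m6A peaks of all genes, and 2 of those 4 were the Ccna2 peaks. A YTHDF2 peak of Kif20a (mean count 12.4) was likewise listed for Cdc23 (640), and 1 of Ccnd3 for Bysl (301).

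The YTHDF2 list held 34 peaks in 16 members: 14 in cyclins, 6 in CDKs, 6 in CDK inhibitors, 4 in MCM genes, 2 in Mki67 and Top2a, and 2 in Cenpe and Kif20a. Mitotic kinases and checkpoint genes had 0, at mean counts of 8.23 to 80.1. Of all tested genes with a mean count under 100, 17.7% had a YTHDF2 peak. The fold enrichment of a peak at its summit, as listed by the authors, had a median of 3.03 over the members' peaks, against 3.01 for the list. Over the members' peaks it ran from 1.70 (Cdkn1a) to 6.71 (Mcm6).

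Ccnd1 and Ccnd2 carried rows of peaks along their 3′ untranslated regions (UTRs). Ccnd2 had 5, with summits 244 to 3581 bp past the stop codon, and all 5 lay in the 3′ UTR, at fold enrichments of 2.52 to 3.84. Ccnd1 had 4, all in the 3′ UTR, 553 to 2484 bp past the stop codon, at 1.85 to 3.91. The farthest and weakest of these (1.85) also overlaps LTO1, which had a mean count of 1382 in the authors' deposited table. Ccnd3 had 3, of which the strongest (5.19) lay in coding sequence, 1 (4.53) in an intron and 1 (2.59) in the 3′ UTR, and Ccne1 had 2 (4.61 and 3.80). Over the members, 21 of 34 summits (61.8%) were in a 3′ UTR, against 38.8% of the peaks of all tested genes. Peaks of 1 gene share a transcript, and without Ccnd1 and Ccnd2 the share was 12 of 25 (48.0%). By gene, 11 of the 15 tested members with a peak (73.3%) had a 3′ UTR summit, against 64.4% of all such genes. Within 200 bp of the stop codon lay 7 of the 24 summits for which the list places it (29.2%, against 22.6% over all peaks), and 0 of the 12 of cyclins.

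MCM genes carried the members' strongest peaks. Mcm6 had 1 at a fold enrichment of 6.71, with its summit 3 bp before the end of the coding sequence, Mcm4 had 2 at 6.58 and 5.55, and Mcm3 had 1 at 5.71. All 4 were in the top 25% of the list (3.77 or more), and 3 lay within 200 bp of the stop codon. Over the peaks of all tested genes, the median fold enrichment was 3.77 under a mean count of 100 and 3.91 at 100 to 300. It was lower in each band above. In the band from 300 to 1000, which holds Mcm3, Mcm4 and Mcm6, the median of all peaks was 3.37 and 35.7% were in the top 25%. In the band of 3000 and over, which holds Cdkn1a, the median was 2.57. Peaks of the CDKs (1.76 to 3.10) and of the CDK inhibitors (1.70 to 3.65) held 0 of 12 in the top 25%, where 22.1% of all peaks in the band from 1000 to 3000 (Cdk4, Cdk6 and Cdkn1b) and 10.0% in that of 3000 and over (Cdkn1a) lay; Cdk2 falls in the band of the MCM genes. Mcm2, Mcm5, Mcm7, Pcna and Rrm1 had no listed peak. Pcna, at a mean count of 7575, had neither kind, in a band where 89.1% of genes had a YTHDF2 peak and 69.1% an m6A peak.

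**Figure D4:**
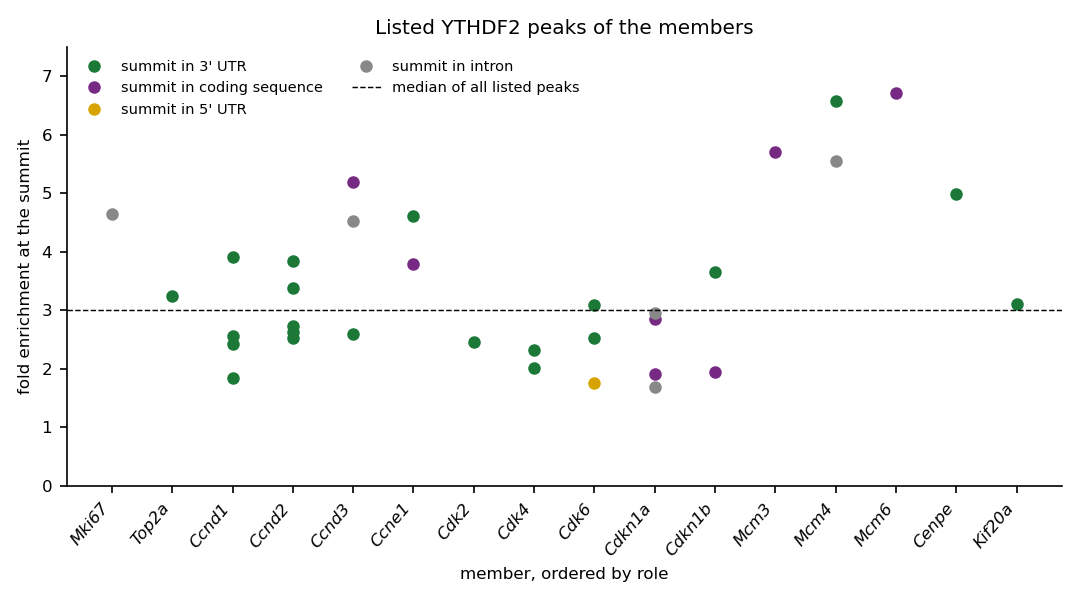
Fold enrichment at the summit (y, the authors' values) of each of the 34 listed YTHDF2 peaks of the members (x, ordered by role), coloured by the transcript feature at the summit; the dashed line is the median of the whole list. The 4 MCM peaks lie at 5.55 to 6.71, and the Ccnd1 and Ccnd2 peaks are all in the 3′ UTR.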

How the data were processed

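Altogether 3 deposited files were used, and 0 of their columns hold values per sample, so edgeR, which the design foresaw for counts, was not run. Per the file headers, the expression table carries DESeq2's column names. Its mean normalized count is a signal made by the authors, and its log2 fold change, SE, Wald statistic (a score), p-value and adjusted p-value are the authors' as deposited. The adjusted values equal a Benjamini-Hochberg adjustment over 10778 genes; the others had none. The YTHDF2 list gives a deposited ratio (fold enrichment) and −log10 q-value in narrow-peak order. The sources used here do not name its caller, its peak names begin with "m6a_peak", and it has a row for each transcript feature a peak overlaps, and its 45541 rows (3234 of them repeats, dropped) describe 17843 distinct peaks. The m6A list (10290 peaks) gives positions without level or chromosome; exomePeak2 is named per the labels, and 9314 peaks lay within 1000 bp of the RefSeq gene (GRCm38.p6, the coordinates of mm10) of their symbol and were placed there. The submitters' processing notes also list HISAT2, HOMER, ChIPseeker and mm10, without versions. Both lists combine the libraries of a group. Peaks of m6A_IP_cKO were not analysed here.

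A call is an adjusted p under 0.05 in the authors' Wald test, and this threshold was set here. Intervals of 95% are normal intervals from the SE. Each summit was assigned to 1 feature of the listed transcripts, with the 3′ UTR first, then coding sequence, then 5′ UTR, then intron. Distances to a stop codon are genomic. The 40 members, the gene lists and the naming rule were chosen with earlier results of these data known. Values are given for called members, the extremes of each role, members with both kinds of peak, and, of other cell cycle genes, those called and the 3 most extreme Wald statistics each way; further values are given to account for all members, and 1 called gene is not reported here. Alternative filters, centring and thresholds were tried. Python 3.11.15 with pandas 2.3.3, numpy 2.4.6, scipy 1.17.1 and matplotlib 3.10.9 was used, and the adjustment was tested on simulated data.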

Additional observations from a re-analysis of the deposited data

How the results depend on the processing

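The 3 calls among the members remained with no filter on low counts, with a mean count of at least 100, with the zero set by the 25% most abundant genes (a shift of 0.04) or by the median of all genes, and at an adjusted p of 0.1; a 1.5-fold requirement left 2. The count of 4 among other cell cycle genes became 2 with no filter and 2 with the zero set by the 25% most abundant genes; Gadd45g was among those lost in both. Of the 8 m6A peaks, 4 overlapped a YTHDF2 peak of any gene (49.0% of all placed m6A peaks). When at least 50% of the m6A peak had to be shared, 2 did (30.7% of all), both of them the Ccna2 peaks under the YTHDF2 peak of Exosc9. The same-gene overlaps of Cdk4 (63 of 300 bp) and Cdkn1a (122 of 2035 bp) fell short of that share. When the summit had to lie inside the m6A peak, 1 did (24.3% of all), again a Ccna2 peak. Members with a YTHDF2 peak numbered 15 at a fold enrichment of at least 2 and 12 at 3 (all tested genes 61.7% and 41.3%). Over 42 values of the called genes under alternatives, 5 lost the call. Those at an adjusted p of 0.1 are among the 42 and could not lose it. Signs could not change, since the shifts were far smaller than the values. No paired analysis was possible because the files carry no values per library. For the same reason leave-one-out fits, the replicate block and DESeq2 on counts were not run. Low counts limit the precision: the 17 untested members, 11 of them mitotic kinase, checkpoint, kinetochore or spindle genes, had SE of 0.49 to 4.91.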

Other observations

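In the checkpoint and p53 list, Gadd45b and Gadd45g were called (2 of 11 tested genes, against 2.32% of all tested genes). Mdm2, Ccng1 and Trp53 did not pass the threshold. Mdm2, the ubiquitin ligase that p53 induces against itself, had a value of 0.39 ± 0.13 in the authors' deposited table (mean count 14585, Wald adjusted p 0.082), and Ccng1 was at −0.26 ± 0.15 (adjusted p 0.61). Both were chosen after their values were seen. Mdm2 carried 11 listed YTHDF2 peaks and 1 m6A peak. Trp53 itself, which encodes p53, was at −0.19 ± 0.16 in the authors' deposited table (Wald adjusted p 0.86).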
